A study of Mus musculus with 15 samples.

Results

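The genes described here are 49 genes of the cell cycle and of DNA replication, taken by name from a list of cyclins, cyclin-dependent kinases, replication factors, mitotic genes and kinase inhibitors. Of these, 48 are among the 21110 genes of the expression table and all 48 passed the filter on low values; Cdc45 was not analysed here. Their levels were followed in 3 cell types sorted from mouse lung: natural helper cells (innate lymphoid cells that make IL-5 and IL-13), basophils and eosinophils. Values are FPKM, fragment numbers scaled to transcript length and library size, in whole numbers, so levels can be compared between genes.

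The mice were C57BL6/J, and the treated ones received 50 ug of papain intranasally over 3 days. Papain is a cysteine protease that acts as an allergen in the airways. There were 2 libraries each of naive basophils, papain basophils, naive natural helper cells, papain natural helper cells, naive eosinophils, papain CD11c- eosinophils and papain CD11c+ eosinophils. A single library came from natural helper cells of papain-treated mice labelled 3'UTRKO; which gene lost its 3′ untranslated region is not in the labels, so its level was not checked. Basophils were gated as FceR1+, CD49b+ and c-kit-, natural helper cells by Thy1.2, IL7Ra and CD25 among cells without lineage markers, and eosinophils by SiglecF and low Gr1 outside the autofluorescent cells. Nothing in the labels says that the 2 libraries of a group came from separate mice, so their spread may be technical. A p-value speaks only of that spread, shared by all 8 groups of the fit and not taken from the compared libraries alone. In such bulk samples a lower share of dividing cells and less of these RNAs per dividing cell cannot be told apart.

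A cell that divides first passes the G1 restriction point, where D-type cyclins with Cdk4 or Cdk6 inactivate the retinoblastoma proteins and release E2F transcription factors. E2F factors switch on cyclin E, the MCM helicase, Pcna and the enzymes that supply nucleotides, and the DNA is copied in S phase. The genes of G2 and mitosis come on later, through the DREAM and B-Myb complexes and Foxm1, and carry CHR and CCAAT elements in their promoters. Most mature granulocytes have left the cycle, whereas natural helper cells can divide in the tissue after IL-33 or IL-2.

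Promoter stretches are shown because they carry these elements and because the members of both waves are described together below. RefSeq promoters (GRCm38.p6, 250 bases before to 50 after each start) were matched for 38 of the 48 genes, with 42 promoters. Promoters on a chromosome that was left out for the members were kept in the set of all promoters. The shares below therefore cover only the members that were matched. The first set holds the CHR element TTTGAA, or its complement TTCAAA, in capitals, with CCAAT or its complement ATTGG in capitals where it falls in the same stretch.
Cdk1 (chr10:69352966-69352995, minus strand): ctgATTGGctccTTTGAAcgtctacgtgca
Top2a (chr11:99024351-99024380, minus strand): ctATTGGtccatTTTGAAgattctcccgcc
Cdc20 (chr4:118437344-118437373, minus strand): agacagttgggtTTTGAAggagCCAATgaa
Mki67 (chr7:135716478-135716507, minus strand): ttagcgccagaaTTTGAAccgccgttttgg
Ccnb2 (chr9:70421704-70421733, minus strand): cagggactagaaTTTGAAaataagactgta
Kif11 (chr19:37376351-37376380, plus strand): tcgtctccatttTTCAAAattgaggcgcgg

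The second set, from genes of replication licensing, holds the E2F motif TTTGGCGC, or the complement GCGGGAAA of its variant TTTCCCGC, in capitals; ATTGG in the Mcm6 stretch is again the complement of CCAAT.
Mcm6 (chr1:128359734-128359763, minus strand): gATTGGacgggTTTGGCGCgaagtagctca
Mcm7 (chr5:138172030-138172059, minus strand): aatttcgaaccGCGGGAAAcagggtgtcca
Cdc6 (chr11:98908002-98908031, plus strand): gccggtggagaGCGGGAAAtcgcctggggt

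Among the 17 promoters of G2/M, checkpoint, chromosome and spindle genes, 10 held TTTGAA on either strand (58.8%), against 17.9% of all 32851 promoters of the same length. CCAAT lay in 14 of these 17 (82.4%), in 37.4% of all promoters and also in 7 of the 9 licensing promoters (77.8%). An E2F motif of either form was in 6 of the 9 licensing promoters (66.7%) and in 1.56% of all promoters. It was in 0 of the 17 and in 0 of the 4 nucleotide supply promoters. The 4 promoters of D-type cyclins and their kinases held neither TTTGAA nor an E2F motif. The motifs were searched on both strands and none contains another; a match describes the sequence and does not show that a factor binds there.

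The labels were compared with defining markers before the members were read. Fcer1a, the alpha chain of the IgE receptor, was at 141 and 194 FPKM in naive basophils, at 23 and 18 in papain basophils and at 0 or 1 elsewhere. Mast cell markers were present as well, summing to 291 and 355 in naive basophils and to 154 and 4 in papain basophils. One of them, the protease gene Mcpt4, was at 105 and 153 in naive basophils and at 45 and 0 in papain basophils. The part of mast cell RNA in the basophil results was not tested. Gata3, the transcription factor of type 2 lymphocytes, was between 168 and 273 in the natural helper cell libraries and at 7 or less in all others. In the eosinophil libraries Siglec5 (the gene of SiglecF) was between 63 and 102 and the eotaxin receptor Ccr3 between 124 and 229. Epx, eosinophil peroxidase, was at 72 in naive library 2, at 5 in CD11c- library 1 and listed at 0 in the other 4. Neutrophil markers summed to between 6470 and 16624 FPKM in the eosinophil libraries. The summed FPKM over all genes was between 374841 and 570208 per library. Differences below are log2 differences of FPKM + 1 tested with limma across 14257 genes, and a gene passed at a Benjamini-Hochberg adjusted p under 0.05.

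Papain natural helper cells held the highest group mean for 34 of the 48 genes. The remainder were split among papain CD11c+ eosinophils (Cdk2, Plk1, Cenpa and Cdkn1b), papain basophils (Ccnd1, Cdkn1a and Cdkn2c), naive eosinophils (Ccnd3), papain CD11c- eosinophils (Cdk6) and the 3'UTRKO library (Tyms), with ties for 4 genes. Papain natural helper cell library 1 held the highest value of the series for 28 genes and library 2 for 10. A value tied between libraries was counted for each of them. At 10 FPKM or more stood 25 genes in each papain natural helper cell library, 11 and 13 in the naive ones, and 10 in the 3'UTRKO library. Naive eosinophils had 6 and 8 genes at that level, and 19 of the 48 were listed at 0 in their library 1. The heat map of the members shows this ordering gene by gene.

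**Figure D1:**
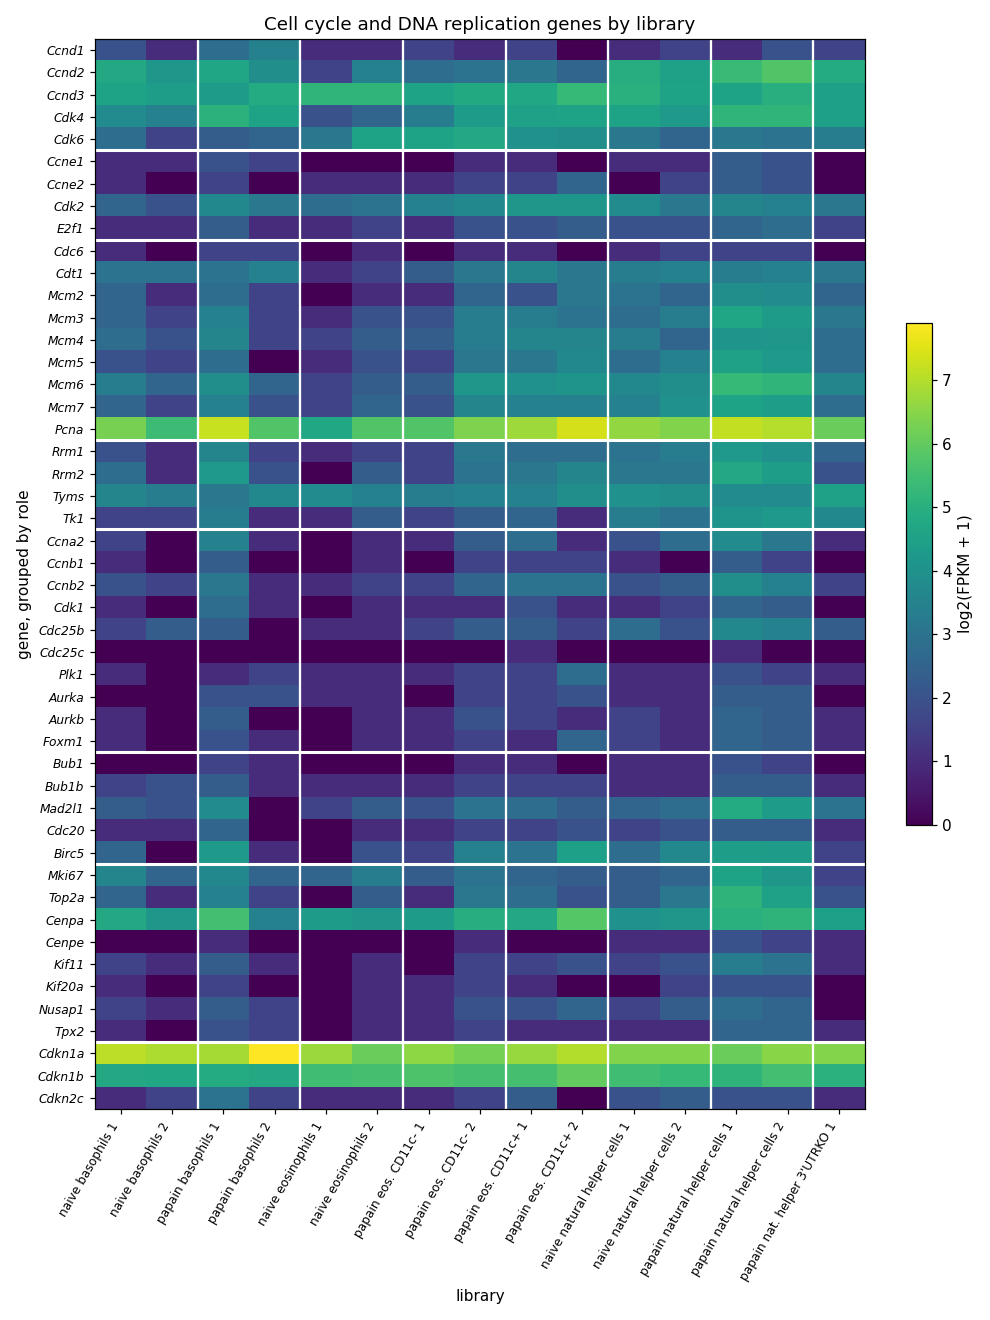
Colour gives log2(FPKM + 1) for each of the 48 genes (rows, grouped by role) in each of the 15 libraries (columns, grouped by cell type and treatment). Both papain natural helper cell columns are brighter than the naive ones across most replication and mitotic genes, and the 3'UTRKO column beside them is darker. Pcna and Cdkn1a are bright in every column.

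The first comparison asked how the cycle genes of natural helper cells stood after papain. The values of most replication and mitotic genes lay higher in the papain libraries than in the naive ones, but no member passed the test, and Ccnd1, Ccnd3, Cdk6 and the kinase inhibitors overlapped between the groups. Both papain libraries lay above both naive libraries for 37 of the 48 genes, against 26.1% of all genes tested. In limma 0 of the 48 passed, with 0.786% of all genes called. The lowest adjusted p among the members was 0.14, for Mki67, and 7 of the 48 had an unadjusted p under 0.05. The median log2 difference of the members was 1.04, beside 0.09 for all genes, with 42 members above 0 and 5 below.

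Replication licensing showed the pattern in 7 of 9 genes. Mcm6, a subunit of the MCM helicase that unwinds DNA at the fork, stood at 12 and 14 FPKM in the naive libraries and at 38 and 35 in the papain ones. Its partner subunit Mcm3 was at 6 and 9 in naive and at 24 and 19 in papain cells. Mcm5 was at 6 and 10 against 22 and 18. In all 6 MCM subunits the lowest papain library exceeded the highest naive one, the closest being Mcm7 with 10 and 15 in naive and 23 and 20 in papain cells. Pcna, the sliding clamp of the polymerases and the most abundant of the replication genes, was at 98 and 83 in naive and at 142 and 129 in papain cells. The loaders did not separate. Cdt1 was at 9 and 10 in both groups, and Cdc6 at 1 and 2 in naive and at 2 in both papain libraries.

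Nucleotide supply separated in 3 of 4 genes. Rrm2, the regulated subunit of ribonucleotide reductase, was at 8 in both naive libraries and at 26 and 20 in papain cells. Rrm1, its large subunit, was at 7 and 9 and then 18 and 15. Tk1, the thymidine kinase of S phase, was at 9 and 7 and then 16 and 18. The exception was Tyms, thymidylate synthase, at 15 and 14 in naive and 13 in both papain libraries, the single member whose papain values both lay below the naive ones (8.47% of all genes did).

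Among the genes of mitosis 22 of 23 separated, counting 9 of 10 G2/M regulators, 5 of 5 checkpoint and anaphase genes and 8 of 8 chromosome and spindle genes. Top2a, the topoisomerase that untangles sister chromatids, was at 4 and 8 in naive and 34 and 22 in papain natural helper cells. Mki67, which encodes the proliferation antigen Ki-67, was at 4 and 5 in naive and 23 and 17 in papain cells. Mad2l1, a spindle checkpoint protein, was at 5 and 6 and then 28 and 19. For each of these genes the lower papain library was above 2 times the higher naive one. Ccnb2, a B-type cyclin, was at 3 and 4 against 14 and 10, and Ccna2, cyclin A, at 3 and 6 against 13 and 8. Birc5, survivin, was at 6 and 12 against 20 and 19. The count of 22 also holds genes at low values. Plk1, Bub1 and Cenpe were each at 1 in both naive libraries and at 3 and 2 in the papain ones. Cdc20 was at 2 and 3 against 4 in both. Values are whole numbers, so such small differences rest on rounding as well as on the libraries. Cdc25c, a phosphatase that activates Cdk1, was the one that did not separate, at 0 in 3 libraries and at 1 in papain library 1.

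Of the genes of G1, 3 of 4 among the E-type cyclins, Cdk2 and E2f1 separated, and 2 of 5 among the D-type cyclins and their kinases. E2f1, an activator E2F, was at 3 in both naive libraries and at 5 and 6 in papain ones, whereas Cdk2 was at 13 and 8 and then 11 and 10. Ccnd2 was at 29 and 22 in naive and 39 and 53 in papain natural helper cells, and Cdk4 was at 23 and 18 and then 35 in both. Ccnd3 was at 31 and 23 and then 23 and 30, so the groups overlapped. Cdk6 overlapped too, at 8 and 5 and then 8 and 7. None of the 3 inhibitors separated: Cdkn1a (p21) was at 84 in both naive libraries and 68 and 89 in papain ones, and Cdkn1b (p27) at 43 and 38 and then 34 and 45.

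**Figure D2:**
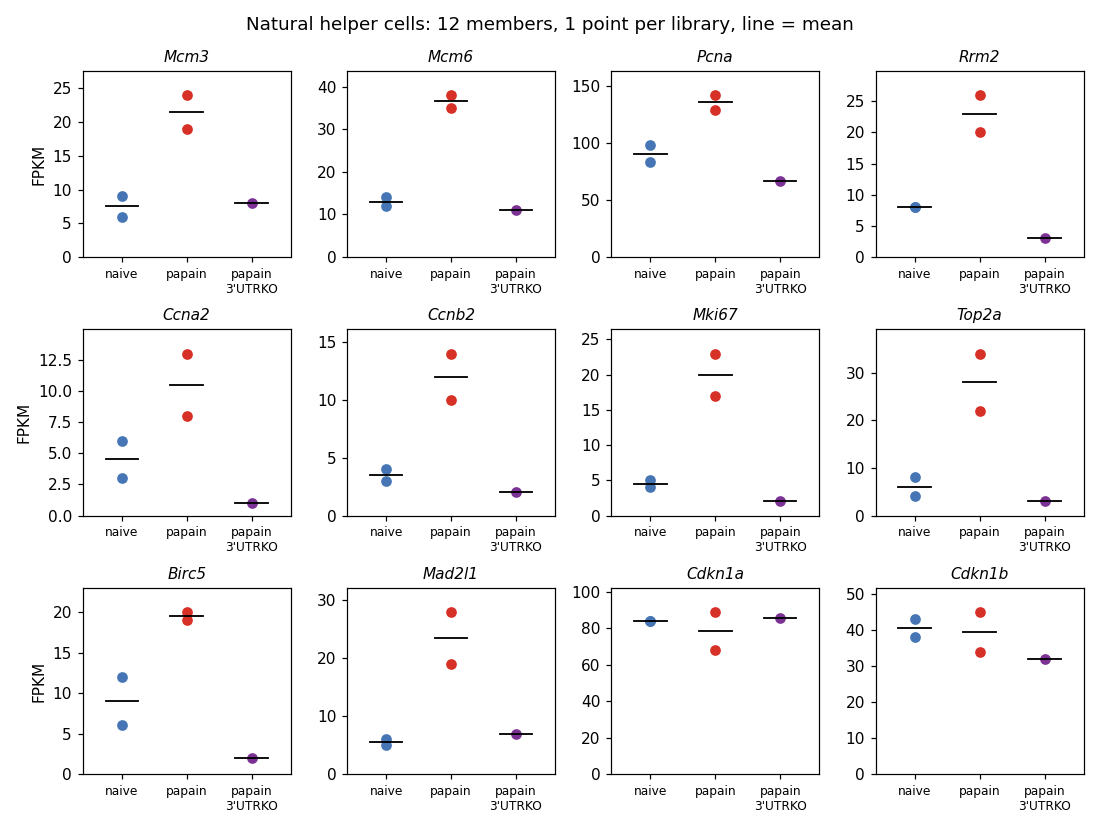
FPKM (vertical axis, from 0, with a scale of its own per gene) of 12 genes, chosen after their values were seen, in natural helper cells; each point is 1 library and the line is the group mean. For the 10 replication and mitotic genes both papain points lie above both naive points and the 3'UTRKO point lies below both papain points; Cdkn1a and Cdkn1b overlap between naive and papain.

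Related genes that are not among the 48 were taken from lists of further replication, mitosis and regulator genes. In papain natural helper cells 34 of 36 other replication genes had a log2 difference above 0 (median 0.65) and 0 passed. Of 56 other mitotic genes 54 were above 0 (median 0.79) and 1 passed, Aspm, a spindle pole protein, which is named because it was the only one and was chosen after its values were seen: it was at 0 in both naive libraries and at 1 in both papain libraries. Of 31 other regulators 21 were above 0 (median 0.29) and 0 passed. The median over all genes was 0.09, and 0.786% of them were called in limma.

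With median-ratio scaling the count of separating members was 33, beside 18.5% of all genes. Leaving out papain library 1 gave 40 (39.9% of all genes), papain library 2 gave 38 (28.6%), naive library 1 gave 39 (44.8%) and naive library 2 gave 38 (31.4%). Without a library fewer values have to be in order, so such a count cannot fall. Counts of this kind, here and below, therefore do not test whether a separation holds. A fit to the 4 libraries alone called 3 members (3.65% of all genes), Aurka, Bub1b and Tpx2, whose whole-number values were identical within each group (1 and 1 against 4 and 4 for Aurka). Markers of other cells moved as well. T cell markers summed to 279 and 292 FPKM in the naive libraries and to 165 and 205 after papain, with 7 of 8 lower in both papain libraries. Alveolar macrophage markers summed to 114 and 64 in naive and 172 and 970 in papain cells (3 of 8 higher in both, Siglec1 at 0 throughout). Top2a and Mki67 were higher in the papain library with the sum of 172, and Tk1, Cenpa and Ccnd2 in the one with 970. Natural helper cell markers themselves summed to 2234 and 4485 in naive and 5178 and 5044 in papain cells, 9 of 12 higher in both. The part of these markers in the result was not tested.

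The library of 3'UTRKO natural helper cells was set against the 2 papain libraries without that label; both comparisons of natural helper cells share these 2 papain libraries. Its values lay below both papain libraries for 43 of the 48 genes, against 37.7% of all genes tested, and above both for 2 genes, Cdk6 and Tyms (20.1% of all genes). Set against papain library 1 alone it was below for 44 genes (40.2% of all genes), and against library 2 alone for 45 (51.9%). Against the naive natural helper cells it was below both libraries for 23 genes (18.5% of all genes) and above both for 6 (21.7%). The median log2 difference from the papain libraries was -1.39 over the members and -0.07 over all genes. With 1 library the difference has no replicate of its own: limma takes its spread from the other groups. By that fit 0 of the 48 passed (0.568% of all genes were called), 14 had an unadjusted p under 0.05, and the lowest adjusted p was 0.113, for Mki67.

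Mki67 was at 2 FPKM in the 3'UTRKO library, beside 23 and 17 in the papain libraries and 4 and 5 in the naive ones. Top2a was at 3, beside 34 and 22 and then 4 and 8. Birc5 was at 2, beside 20 and 19 and then 6 and 12. These mitotic genes were lower there than in either kind of library. Rrm2, at 3, and Ccna2, at 1, followed the same order.

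Of the 9 licensing genes 5 were below both naive libraries. Mcm6 was at 11 in the 3'UTRKO library and at 12 and 14 in naive cells, Mcm3 at 8 beside 6 and 9, and Mcm2 at 5 beside 7 and 5. Mcm7 lay further below, at 6 beside 10 and 15. Pcna was at 67, below the naive values of 98 and 83. Genes above both naive libraries were Tk1 at 12 (9 and 7 in naive), Tyms at 22 (15 and 14), Mad2l1 at 7 (5 and 6), Cenpa at 21 (15 and 17), Cdk6 at 9 (8 and 5) and Cdkn1a at 86 (84 in both). Tyms in this library was the highest value of the gene in the series, while the other nucleotide genes were below both papain libraries. Ccnd2, at 28, was below the papain values of 39 and 53 and inside the naive range.

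By role, the 3'UTRKO value was below both papain libraries for 9 of 9 licensing genes, 9 of 10 G2/M regulators, 5 of 5 checkpoint genes and 8 of 8 chromosome and spindle genes. For the D-type cyclins and their kinases it was 3 of 5, and for the inhibitors 2 of 3. The medians by role show the same library near or below the naive natural helper cells.

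**Figure D3:**
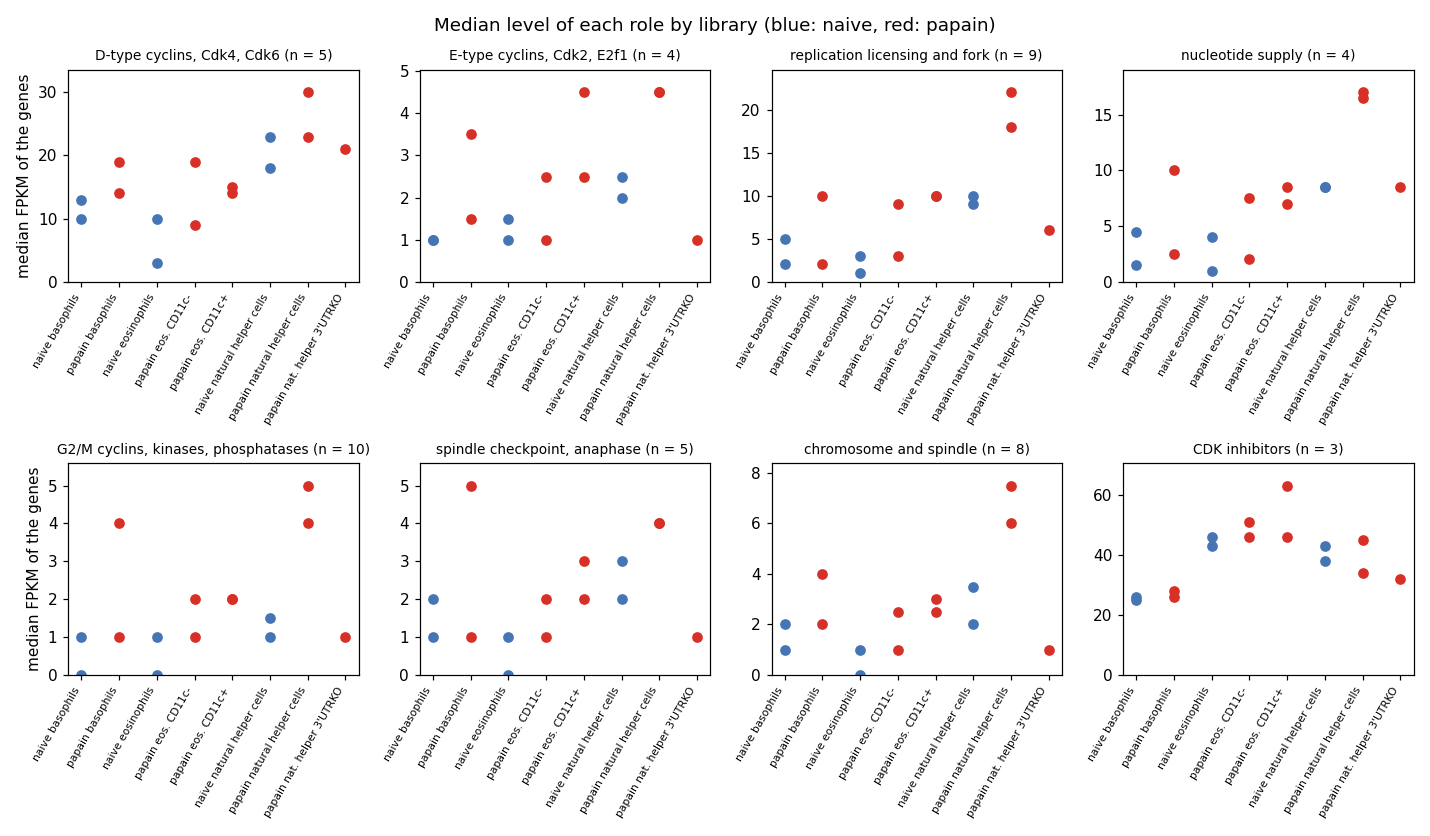
Median FPKM of the genes of each role (vertical axis, from 0) in each library, with naive groups in blue and papain groups in red. For replication licensing the naive natural helper cell libraries sit at 9 and 10, the papain libraries at 22 and 18 and the 3'UTRKO library at 6. In the inhibitor panel naive (43 and 38) and papain (34 and 45) natural helper cells overlap, and the 3'UTRKO library sits at 32.

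Of the further genes, 35 of 36 replication genes were below 0 in this contrast (median -1) and 0 passed. Of 56 mitotic genes 52 were below 0 (median -1.27) and 1 passed, again Aspm, at 0 in the 3'UTRKO library and 1 in both papain libraries. A fit to these 3 libraries alone called 10 members, 9 lower and 1 higher (19.1% of all genes called in either direction), all but Birc5 genes whose 2 papain values were identical whole numbers. Fibroblast markers were lower there in 7 of 7 genes (sum 156, beside 335 and 360), and epithelial markers summed to 4386 beside 729 to 2018 in the papain libraries; their part was not tested.

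In basophils 5 genes rose after papain and most of the list overlapped between naive and papain libraries. Both papain libraries were above both naive ones for 8 of 48 genes, beside 37.5% of all genes, and 0 were below in both (8.91% of all genes). By limma 5 genes passed, all higher: Aurka, Bub1, Tpx2, Cdk4 and Cdk2, with 22.1% of all genes called higher and 3.88% called lower. The median log2 difference was 0.54 over the members and 0.50 over all genes, so the members' median stood at that of the table. Median-ratio scaling moved the median of all genes to 0.16 and that of the members to 0.21, and quantile normalization to -0.08 and -0.06, with the sign turned.

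Cdk4, the kinase of the D-type cyclins, was at 13 and 10 FPKM in the naive libraries and at 33 and 23 in those after papain. Every papain value exceeded every naive one, with a log2 difference of 1.2 ± 0.35 (SE, adjusted p = 0.0335). Cdk2, the kinase of cyclins E and A, was at 5 and 3 and then 12 and 8 (1.14 ± 0.29, adjusted p = 0.0226). The other 3 were low: Aurka, a spindle pole kinase, was at 0 in both naive and 3 in both papain libraries (2.00 ± 0.42 on the log2 scale with 1 added, adjusted p = 0.0113). Bub1, a checkpoint kinase, was at 0 in both naive libraries and at 2 and 1 in papain ones, and Tpx2, the activator of Aurka, was at 1 and 0 and then 3 and 2. The values of Cdk4 and Cdk2 were smaller after other scalings, and neither passed: with median-ratio scaling both were 0.73 (adjusted p = 0.0961 and 0.0515), and with quantile normalization 0.58 and 0.53 (0.179 and 0.168). Tpx2 passed with neither scaling (0.0721 and 0.257), and Bub1 not with quantile normalization (0.102). Each of the 5 calls was also lost without at least 1 library. Without naive library 2 no member passed, and the adjusted p was 0.177 for Cdk4, 0.144 for Cdk2, 0.0656 for Aurka, 0.161 for Bub1 and 0.304 for Tpx2. Without papain library 1 it was 0.137 for Cdk4, 0.0882 for Cdk2, 0.168 for Bub1 and 0.158 for Tpx2, and 2 members passed as lower after papain, Cdc25b (-1.95, adjusted p = 0.0317) and Mad2l1 (-2.16, adjusted p = 0.0195). Without papain library 2 it was 0.0516 for Cdk4, 0.0598 for Bub1 and 0.0766 for Tpx2, and without naive library 1 it was 0.0543 for Cdk4 and 0.11 for Bub1.

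The 2 papain basophil libraries differed from each other across the rest of the list. Mad2l1 was at 13 in papain library 1 and 0 in library 2, with 4 and 3 in naive basophils. Birc5 was at 18 and 1, with 5 and 0 in naive cells, and Rrm2 at 18 and 3, with 6 and 1. Pcna was at 149 and 53, with 76 and 42. In each case library 1 was the highest of the 4 and library 2 lay below the higher naive value. Leaving out papain library 2 gave 39 of 48 genes above both naive libraries (54.9% of all genes), and leaving out papain library 1 gave 13 (49.7%). Without naive library 1 it was 22 (51.5%).

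Summed over 40 members (all but D-type cyclins, Cdk4, Cdk6 and inhibitors), papain basophil library 1 reached 448 FPKM and library 2 142, beside 219 and 120 in naive basophils. Alveolar macrophage markers summed to 11656 in papain library 1, 289 in library 2 and 59 and 39 in naive basophils, with 5 of 8 higher in both papain libraries. Fibroblast markers summed to 928 and 374, beside 13 and 3. Epithelial markers summed to 20481 and 34662, beside 6648 and 8724, and endothelial markers to 114 and 381, beside 51 and 29. T cell markers summed to 140 and 9, beside 74 and 4, and natural helper cell markers to 482 and 173, beside 461 and 412. The median of the 12 natural helper cell markers was 21.5 and 4 FPKM, beside 5 and 1 in naive basophils. Of the 12, 1 was higher in both papain libraries and 3 were lower in both. Basophil markers were lower after papain, at 702 and 2108 in papain and 6739 and 5872 in naive libraries, 9 of 10 lower in both. Their part in the basophil results was not tested.

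**Figure D4:**
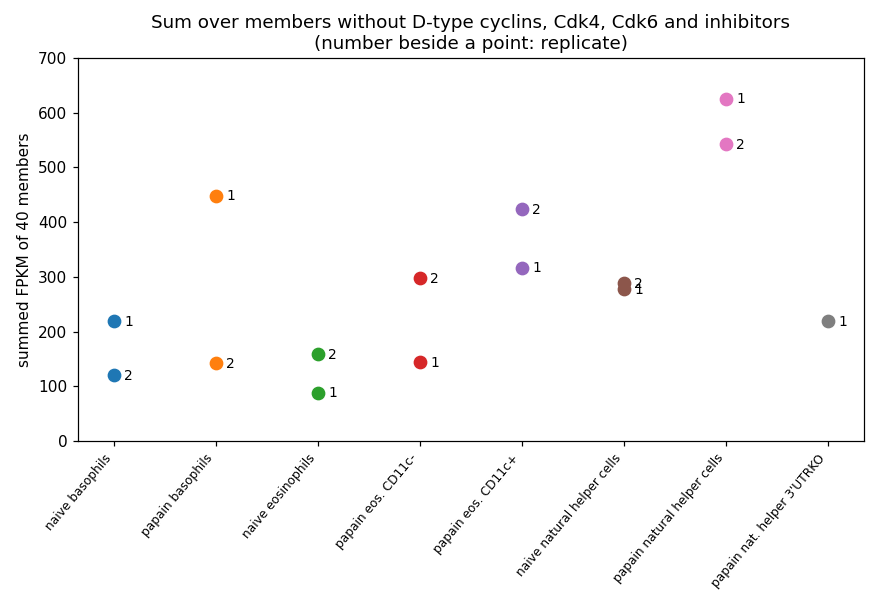
Summed FPKM of 40 members (vertical axis, from 0) for each library, with replicate numbers beside the points. Papain natural helper cells sit highest, at 626 and 542, the naive ones at 278 and 288 and the 3'UTRKO library at 219; the papain basophil points are far apart, at 448 and 142.

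Several related genes passed in basophils, in the fit that called 22.1% of all genes higher and 3.88% lower. Of the 36 other replication genes 2 rose and 1 fell. Gins2, a subunit of the replicative helicase, went from 1 and 0 FPKM to 7 and 5 (log2 difference 2.29, adjusted p = 0.0304). Pold2, a subunit of DNA polymerase delta, was at 1 in both naive and 6 in both papain libraries (1.81, adjusted p = 0.00681). Rfc2, a clamp loader subunit, fell from 22 and 21 to 12 and 10 (-0.91, adjusted p = 0.0338). Among 56 other mitotic genes 4 rose and 1 fell. Wee1, the kinase that restrains Cdk1, was at 1 and 0 and then 4 and 8 (2.25, adjusted p = 0.0356), and Bub3 at 8 and 6 and then 18 and 22 (1.4, adjusted p = 0.00637). Cks2, a small Cdk-binding protein, fell from 362 and 314 in naive basophils to 101 and 226 (-1.15, adjusted p = 0.0330). Among 31 regulators 4 rose and 1 fell, with Gadd45g, a stress-induced growth arrest gene, at 13 and 20 and then 45 and 105 (2.03, adjusted p = 0.00576). Ccng2, a cyclin linked to cell cycle arrest, fell from 117 and 86 to 28 and 50 (-1.4, adjusted p = 0.0195). E2f5, a repressor E2F, was at 2 in both naive and 6 in both papain libraries (1.22, adjusted p = 0.0438).

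Whether the papain response differed between basophils and natural helper cells was tested as the difference of the 2 log2 changes. Of the 48 genes 0 passed in limma (6.75% of all genes called), and 3 had an unadjusted p under 0.05. The median difference, basophils minus natural helper cells, was -0.21 over the members and 0.36 over all genes. Mki67 had the lowest adjusted p, 0.14, which was 0.0448 after quantile normalization. Without papain basophil library 1, 4 members passed, all with the lower log2 change in basophils (Ccnb2, Cdc25b, Bub1b and Mad2l1; 12% of all genes). The papain basophil values of Mki67 were 12 and 5 beside 11 and 5 in naive basophils.

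In eosinophils the CD11c+ cells of papain-treated mice were compared with eosinophils of naive mice. Cdk4, Cdt1, Cdk2 and Nusap1 rose, and 25 of 48 genes were above both naive libraries in both CD11c+ libraries, against 34% of all genes. The 4 calls compare with 9.93% of all genes called higher, and 0 members passed as lower (2.2% of all genes). The median log2 difference was 1.02 over the members and 0.34 over all genes. Quantile normalization moved these to 0.50 and -0.10, and median-ratio scaling to 0.76 and 0.03, with 17 and 24 genes above both naive libraries (23.4% and 26.8% of all genes).

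Cdk4 was at 3 and 5 FPKM in naive and 22 and 23 in CD11c+ eosinophils (log2 difference 2.26 ± 0.35, adjusted p = 0.00528). Cdt1, which loads the MCM helicase on origins, was at 1 and 2 and then 11 and 8 (2.08 ± 0.33, adjusted p = 0.00621). Nusap1, a spindle protein, was at 0 and 1 and then 3 and 5 (1.79 ± 0.50, adjusted p = 0.0496). Cdk2 was at 6 and 7 and then 17 in both (1.27 ± 0.29, adjusted p = 0.0271). In none of the 4 genes did the groups overlap. The calls of Cdk2 and Nusap1 were lost without any 1 of the 4 libraries (adjusted p 0.0602 to 0.16 for Cdk2 and 0.0616 to 0.281 for Nusap1). Those of Cdk4 and Cdt1 were lost without naive library 1 (0.0535 and 0.0601), the fit in which no member passed, and held without any other of the 4.

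The 6 MCM genes and Pcna lay above both naive libraries in both CD11c+ libraries and did not pass; with the filter of 5 FPKM in 2 libraries Mcm6 (2.09, adjusted p = 0.033) and Pcna (1.82, adjusted p = 0.0324) did. Mcm6 was at 2 and 4 in naive and 15 and 16 in CD11c+ eosinophils, Mcm5 at 1 and 3 and then 8 and 12, and Mcm7 at 2 and 5 and then 10 in both. Pcna was at 25 and 53 and then 105 and 165. Mitotic genes were less uniform: Mki67 was at 5 and 9 in naive and 5 and 4 in CD11c+ cells, Top2a at 0 and 4 and then 6 and 3, and Birc5 at 0 and 3 and then 7 and 21. The first of these overlapped between the groups, the second did too, and the third did not.

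CD11c- eosinophils of the same treatment share the naive libraries with that comparison. In them 4 of 48 genes were above both naive libraries (27.8% of all genes) and 1 was below (9.41%). By limma 0 of the 48 passed (2.24% of all genes called), 3 had an unadjusted p under 0.05, and the lowest adjusted p was 0.0655, for Cdk4. Cdk4 was at 9 and 19 in CD11c- cells, and Cdt1 at 4 and 8. A filter of 5 FPKM in at least 2 libraries called both (adjusted p = 0.039 and 0.0442). The 2 CD11c- libraries lay apart: Mcm6 was at 4 and 17, Mcm7 at 3 and 11, Rrm1 at 2 and 8 and Birc5 at 2 and 10, and without CD11c- library 1 the count above both naive libraries was 37 (44.1% of all genes). Without naive library 2 it was 29 (42.6%), and 6 without CD11c- library 2 or naive library 1 (35.6% and 34.5%). The naive libraries lay apart as well, with Ccnd2 at 2 and 10 and Cdk6 at 8 and 23.

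The 2 gates were also compared with each other. Of the 48 genes 7 were higher in both CD11c+ than in both CD11c- libraries (20.8% of all genes) and 1 was lower (9.01%). By limma 0 members passed (0.0561% of all genes called), 1 had an unadjusted p under 0.05, and the lowest adjusted p was 0.551, for Aurka. Without CD11c+ library 1 the count of 7 became 22 (36.5% of all genes), without CD11c+ library 2 it became 14 (35.8%), and without CD11c- library 2 it became 29 (31.7%).

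Marker lists moved in the same comparisons. T cell markers summed to 3 and 1 FPKM in naive, 19 and 102 in CD11c- and 96 and 122 in CD11c+ eosinophils, 8 of 8 higher in both libraries of each gate. Fibroblast markers summed to 1 and 5, then 451 and 274, then 687 and 617. Alveolar macrophage markers summed to 204 and 499 in naive and to 1108 and 1328 in CD11c+ cells, 5 of 8 higher in both. Natural helper cell markers summed to 79 and 112 in naive, 188 and 210 in CD11c- and 224 and 245 in CD11c+ cells. Of these 12 markers 10 were higher in both libraries of each gate, as were 7 of 9 B cell markers. CD11c- library 2, with the higher MCM values, had the higher sums of T cell, natural helper cell and B cell markers (251 beside 94 for B cells). Its fibroblast and alveolar macrophage sums were the lower ones (318 beside 443 for macrophages). The part of these markers was not tested.

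Of the 36 other replication genes 4 rose in CD11c+ eosinophils and 0 fell, in the fit that called 9.93% of all genes higher and 2.2% lower. Rpa3, a subunit of the single-strand binding protein, was at 4 and 3 in naive and 18 and 38 in CD11c+ cells (log2 difference 2.61, adjusted p = 0.0182). Dut, the dUTPase that keeps uracil out of DNA, was at 0 and 1 and then 7 and 8 (2.58, adjusted p = 0.0286). Rfc3, a clamp loader subunit, was at 1 in both and then 4 and 9 (1.82, adjusted p = 0.0296). Among the 56 other mitotic genes 2 rose and 1 fell, with Kif23, a kinesin of the midbody, falling from 15 in both naive libraries to 4 and 3 (-1.84, adjusted p = 0.0397). Among the 31 regulators 2 rose and 1 fell. Rbl2 (p130), the pocket protein of quiescent cells, fell from 32 and 31 to 7 and 4 (-2.36, adjusted p = 0.00892). Gadd45g was at 13 and 10 and then 53 and 58 (2.19, adjusted p = 0.00791), and E2f5 at 1 in both and then 5 and 12 (2.14, adjusted p = 0.0102). In CD11c- eosinophils 0 genes of the 3 lists passed in limma (2.24% of all genes called).

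Between naive cell types the members that passed were Cdk4, Cdk2, Ccnd2 and Cdkn1b of G1 control, and Cdt1 and Mcm2 of licensing. Of these cells, eosinophils were below natural helper cells in 4 of the 48 genes and above in 0 (16.5% and 11.6% of all genes called). Cdk4 was at 3 and 5 in naive eosinophils and 23 and 18 in naive natural helper cells (log2 difference -2.12 ± 0.35, adjusted p = 0.00201). Cdt1 was at 1 and 2 beside 9 and 10 (-2.10 ± 0.33, adjusted p = 0.00167). These were the 2 calls, of 30 over all comparisons, that held under each of their 11 alternatives, with highest adjusted p-values of 0.044 and 0.0373. Ccnd2 was at 2 and 10 beside 29 and 22 (-2.19 ± 0.55, adjusted p = 0.0172), and Mcm2 at 0 and 1 beside 7 and 5 (-2.29 ± 0.74, adjusted p = 0.0464). The Ccnd2 call was lost without naive eosinophil library 1 (0.0864) and without either natural helper cell library (0.0976 and 0.0564), and that of Mcm2 without any 1 of the 4 libraries (0.0722 to 0.236). Of the other replication genes 11 of 36 were lower in naive eosinophils and 0 higher, Lig1, the ligase of Okazaki fragments, being at 2 in both beside 9 and 17 (-2.16, adjusted p = 0.0108).

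**Figure D5:**
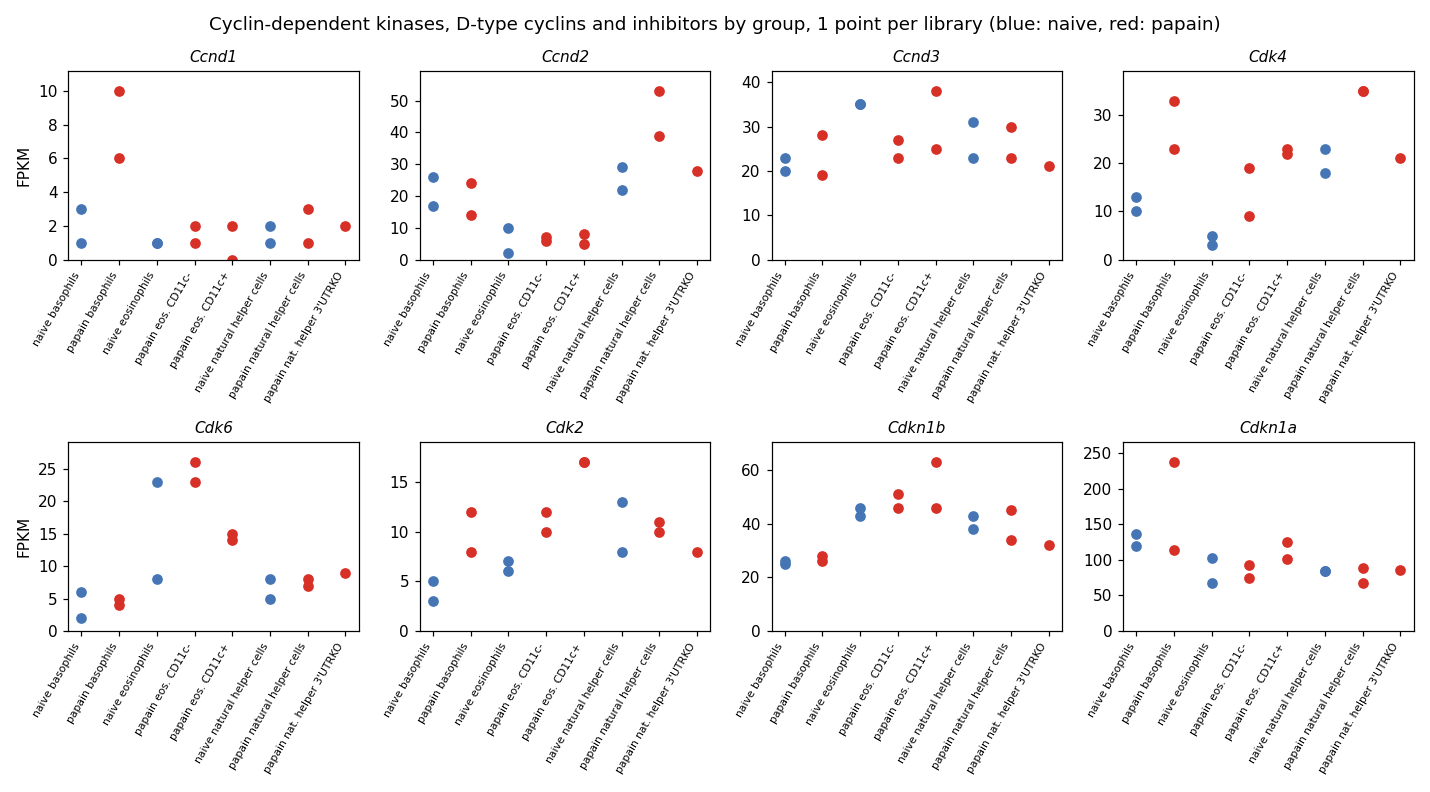
FPKM (vertical axis, from 0, with a scale of its own per gene) of 8 genes of G1 control in each group, 1 point per library, naive groups in blue and papain groups in red; the genes were chosen after their values were seen. Ccnd2 and Cdk4 are low in naive eosinophils, at 2 and 10 and at 3 and 5, whereas Ccnd3, Cdk6 and Cdkn1b are at or above the levels of the other naive cells there.

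The other D-type cyclins did not pass between naive cells. Ccnd3 was at 35 in both libraries, with 23 and 20 in naive basophils and 31 and 23 in naive natural helper cells. Ccnd1 was low in all 3 naive cell types, between 1 and 3. By level Ccnd3 was the most abundant D-type cyclin in naive eosinophils, whereas the values of Ccnd2 and Ccnd3 overlapped in naive basophils and in naive natural helper cells.

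Against naive eosinophils, naive basophils were higher in 3 genes and lower in 1 (5.3% and 8.66% of all genes called). Ccnd2 was at 26 and 17 in basophils (1.94 ± 0.55, adjusted p = 0.0493), Cdk4 at 13 and 10 (1.34 ± 0.35, adjusted p = 0.0341) and Cdt1 at 7 in both (1.71 ± 0.33, adjusted p = 0.00949). Cdkn1b was lower, at 26 and 25 beside 43 and 46 (-0.78 ± 0.19, adjusted p = 0.0280). The calls of Cdk4 and Cdkn1b were lost without any 1 of the 4 libraries (0.0531 to 0.212 and 0.0717 to 0.133). The call of Ccnd2 was lost without basophil library 1 or 2 or eosinophil library 1 (0.176, 0.114 and 0.253), and that of Cdt1 without basophil library 2 or eosinophil library 1 (0.0562 and 0.0792). Cdkn1b did not pass with median-ratio scaling (-0.48, adjusted p = 0.174) or quantile normalization (-0.28, adjusted p = 0.464). Cdk6, at 6 and 2 in naive basophils and 8 and 23 in naive eosinophils, passed as lower in basophils with both scalings (0.0405 and 0.0369) and with the filter of 5 FPKM (0.0316).

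Against naive natural helper cells, naive basophils were lower in 2 genes and higher in 0 (13.6% and 6.96% of all genes called). Cdk2 was at 5 and 3 beside 13 and 8 (-1.2 ± 0.29, adjusted p = 0.0215), and Cdkn1b at 26 and 25 beside 43 and 38 (-0.64 ± 0.19, adjusted p = 0.0441). Without basophil library 2 or natural helper cell library 1 the Cdk2 call was lost (0.133 and 0.127), and that of Cdkn1b without any 1 library (0.083 to 0.182). With median-ratio scaling the Cdkn1b difference was -0.26 (adjusted p = 0.427). Cks2, outside the 48, stood at 362 and 314 in naive basophils and 13 and 9 in naive natural helper cells (4.84, adjusted p = 3.49e-05). Gadd45b, a growth arrest gene, was at 138 and 106 in naive basophils beside 1114 and 1121 (-3.20, adjusted p = 0.000273).

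Among papain cells, CD11c- eosinophils were below natural helper cells in 7 genes and above in 0 (8.93% and 7.67% of all genes called). The median log2 difference was -1.29 over the members and 0.00 over all genes. Ccnd2 was at 6 and 7 beside 39 and 53 (-2.63 ± 0.55, adjusted p = 0.0118), and Kif11, a spindle kinesin, at 0 and 2 beside 9 and 7 (-2.37 ± 0.61, adjusted p = 0.0301). Mki67 was at 4 and 7 beside 23 and 17 (-1.72 ± 0.48, adjusted p = 0.0382), and Cdk4 at 9 and 19 beside 35 in both (-1.35 ± 0.35, adjusted p = 0.0291). The other 3, Ccne1, Aurka and Cenpe, were at 1 or less in CD11c- cells but for Aurka at 2 in library 2, and between 2 and 4 in natural helper cells. All 7 calls were lost without either papain natural helper cell library (0.0516 to 0.237). Without CD11c- library 2 those of Ccnd2 (0.0519) and Mki67 (0.0678) were lost and the others held. Cdk6, at 23 and 26 beside 8 and 7, passed as higher in CD11c- eosinophils with both scalings (adjusted p = 0.0199 and 0.0123). The adjusted p without CD11c- library 1 was 0.0833 for Ccnd2, 0.208 for Kif11, 0.241 for Mki67, 0.19 for Cdk4, 0.144 for Ccne1, 0.141 for Aurka and 0.294 for Cenpe.

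Papain basophils were below papain natural helper cells in 3 genes and above in 0 (7.18% and 12.6% of all genes called). Mcm5 was at 6 and 0 beside 22 and 18 (-2.98 ± 0.85, adjusted p = 0.0401), and Cdc25b, a phosphatase that activates Cdk1, at 4 and 0 beside 12 and 10 (-2.42 ± 0.69, adjusted p = 0.0392). Cenpe, a kinetochore kinesin, was at 1 and 0 beside 3 and 2. The calls were lost without papain basophil library 2 (0.204, 0.179 and 0.219 in this order), without natural helper cell library 1 (0.182, 0.18 and 0.221) and without natural helper cell library 2 (0.129, 0.125 and 0.0955). Without papain basophil library 1, the library with the macrophage marker sum of 11656, 18 members passed in place of 3, 17 of them lower and Cdkn1a higher (26.9% of all genes called in either direction, beside 19.7% with it).

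Papain basophils and CD11c+ eosinophils differed in 1 member, which was lower in basophils (3.46% of all genes called lower and 2.8% higher). Cdkn1b, which holds cyclin E and A kinases inactive, was at 28 and 26 in papain basophils and 46 and 63 in CD11c+ eosinophils (-0.97 ± 0.19, adjusted p = 0.0214). The call was lost without papain basophil library 2 (0.0895), without CD11c+ library 2 (0.119) and with median-ratio scaling (0.0606). Ccnd1, at 6 and 10 in papain basophils and 2 and 0 in CD11c+ eosinophils, passed as higher in basophils under 4 alternatives that kept all libraries: a pseudocount of 5 (adjusted p = 0.0235), the filter of 5 FPKM (0.0443), median-ratio scaling (0.0367) and quantile normalization (0.0471). Without papain basophil library 1 the number of members that passed was 9 (16% of all genes), and without CD11c+ library 1 it was 4 (13%). Cdkn1a, the inhibitor induced by p53, lay between 67 and 237 FPKM in the basophil and eosinophil libraries and passed in no comparison of the fit to all libraries as deposited. Against papain natural helper cells it passed as higher in papain basophils with median-ratio scaling (1.25, adjusted p = 0.0397) and with the filter of 5 FPKM in 2 libraries (1.07, adjusted p = 0.0448).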

How the data were processed

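Poly(A) RNA from an input of 10 ng was sequenced, per the labels' protocols. Per the submitters' processing notes, TopHat 1.4.0 and Cufflinks 1.3.0 were used with mm9; the annotation and the rounding step are not given in the sources used here. The deposited table holds 1 score per gene and library, read from its values and the tool as FPKM that the authors rounded to whole numbers; read depth is unknown. The members and lists were chosen with earlier results of these data known.

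The 14257 genes at 1 FPKM or more in at least 2 libraries were tested as log2(FPKM + 1) in limma 3.58.1 (R 4.3.3): a coefficient for each of 8 groups over 15 libraries (7 residual degrees of freedom), eBayes with trend, two-sided, Benjamini-Hochberg adjustment, threshold 0.05, 13 comparisons. The script was tested on simulated data. Library values are given for members that passed with a group mean of 5 FPKM or more; changes, SE and adjusted p only for members that passed. For further pathway genes, up to 3 per list and comparison with such a mean are named. Other genes or values were picked after they were seen. Promoters are those of RefSeq on GRCm38.p6; the expression table carries no coordinates.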

Additional observations from a re-analysis of the deposited data

How the results depend on the processing

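Of the 30 pairs of member and comparison that passed, 0 turned direction under any alternative and 2 (Cdk4 and Cdt1, naive eosinophils against natural helper cells) passed under all of theirs; for the other 28 the cause of the lost call was not tested. Counts of members that passed moved as follows. Here and in the next paragraphs they stand without the share of all genes called in the same fit. They therefore do not show whether the members moved more than other genes. With a pseudocount of 5 they were 1 in natural helper cells (papain against naive), 1 for naive basophils against natural helper cells, 11 for papain basophils against natural helper cells, 2 for papain basophils against CD11c+ eosinophils and 17 for CD11c- eosinophils against natural helper cells. With a filter of 5 FPKM in at least 2 libraries they were 2 in basophils, 2 in CD11c- eosinophils, 1 for naive basophils and 7 for naive eosinophils against natural helper cells, and 2 for papain basophils against CD11c+ eosinophils. With median-ratio scaling they were 2 in basophils, 1 in CD11c- eosinophils, and 1 (naive) and 5 (papain) for basophils against natural helper cells; for papain basophils against CD11c+ eosinophils the count stayed 1 but the gene was Ccnd1, higher, in place of Cdkn1b, lower. With quantile normalization they were 1 in basophils, 2 in CD11c+ eosinophils, 1 (naive) and 10 (papain) for basophils against natural helper cells, 3 for papain basophils against CD11c+ eosinophils and 1 for the difference of responses. With the compared groups alone they were 1 in basophils, 3 in natural helper cells, 1 in CD11c+ eosinophils, 10 for the 3'UTRKO library, 5 (naive) and 0 (papain) for basophils against natural helper cells, 0 for papain basophils against CD11c+ eosinophils and 3 for CD11c- eosinophils against natural helper cells. Removing the filter on low values moved none of the 13 counts by over 1.5 times.

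Replicate numbers did not pair the libraries: deviations of same-numbered libraries correlated between -0.15 and 0.12 over 21 pairs of groups, 1 of them over 0.1. With the replicate number as a replicate block the counts were 3 in basophils, 1 for naive basophils against natural helper cells, 2 against eosinophils and 1 for papain basophils against natural helper cells, and within 1.5 times in the other comparisons.

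Leaving out 1 library at a time gave 0 to 4 members in basophils, 0 in natural helper cells, 0 for the 3'UTRKO library, 0 between the CD11c gates, 0 to 1 in CD11c- and 0 to 3 in CD11c+ eosinophils. Between naive cells it gave 0 to 1 for basophils against natural helper cells, 0 to 2 for basophils against eosinophils and 2 to 3 for eosinophils against natural helper cells. Between papain cells it gave 0 to 18 for basophils and 0 to 7 for CD11c- eosinophils against natural helper cells, 0 to 9 for basophils against CD11c+ eosinophils, and for the difference of responses 0 to 4. Counts of members whose papain libraries all lay above the others were, by an alternative chosen after seeing the data, 38 to 40 in natural helper cells (28.6% to 44.8% of all genes), 9 to 39 in basophils (40% to 54.9%), 6 to 37 in CD11c- (34.5% to 44.1%) and 26 to 36 in CD11c+ eosinophils (38% to 52.3%) and 7 to 29 between the gates (26.5% to 36.5%), and the 3'UTRKO library lay below for 44 to 45 (40.2% to 51.9%). Leaving out a library cannot lower these counts of members above or below, so they do not test whether the order holds. In limma, where a group kept 1 library, its spread was taken from the other groups.

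Values are whole numbers and read depth is unknown, so differences among genes at 0 to 3 FPKM rest on rounding as well as on the libraries.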
